A study of Mus musculus with 6 samples.

Results

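The genes of the cytosolic ribosome's proteins were followed in RNA-seq libraries of mouse LT-HSCs (long-term hematopoietic stem cells), rare cells of the marrow that self-renew and supply all blood lineages. The members were chosen by symbol alone: Rpl or Rps followed by a number and, where present, the letters a, l, x or y, plus Rplp0, Rplp1, Rplp2 and Rpsa. This gave 84 of 47561 gene rows, of which 52 belong to the large and 32 to the small subunit. Rows whose symbols mark a pseudogene (-ps or Gm) were left out. Rpl6l, Rpl32l and Rps4l match the pattern and were kept, although GENCODE lists them as pseudogenes. The control group held 3 libraries labelled WT, and the other group held 3 libraries titled Piezo1 KO, a knockout of the gene of a cation channel that opens when the membrane is stretched. Cells of both groups had been sorted from bone marrow. The labels give no strain, age, sex or kind of allele (germline or conditional), and the genotype labels of KO 2 and KO 3 name other Piezo numbers than their titles do. Whether each library came from its own mouse is not stated, so the tests measure only the spread between these libraries, which may be technical.

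A ribosome joins a small subunit, which holds the mRNA and reads its codons, with a large subunit, which forms peptide bonds. Each protein is needed in about 1 copy per subunit, apart from the acidic stalk proteins, and surplus protein is broken down. In mammals these mRNAs are abundant and long-lived. They start with a C and a run of pyrimidines, the 5′ terminal oligopyrimidine (TOP) motif, through which mTOR signalling and LARP1 set how much of them is translated. Blood stem cells are known for a low rate of protein synthesis, and loss of 1 copy of several ribosomal protein genes causes Diamond-Blackfan anemia, in which red cell formation fails.

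RefSeq (GRCm38.p6) gave a start site for 62 of the 84 members. The 30 bases around it, from 10 before to 20 from the start on, are shown for members with a clear pyrimidine run and for those that the comparison of KO with control turns on. Capitals mark a run of at least 8 pyrimidines.

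Rps6, chr4:86857348-86857377, minus strand: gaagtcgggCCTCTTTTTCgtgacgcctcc
Rpl15, chr14:18270967-18270996, minus strand: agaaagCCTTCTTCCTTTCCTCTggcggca
Rpl28, chr7:4792955-4792984, plus strand: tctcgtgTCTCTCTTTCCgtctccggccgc
Rps24, chr14:24490668-24490697, plus strand: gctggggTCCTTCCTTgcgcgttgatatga
Rps2, chr17:24720053-24720082, plus strand: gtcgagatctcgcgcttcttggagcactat
Rplp0, chr5:115559457-115559486, plus strand: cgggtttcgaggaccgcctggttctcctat
Rpl4, chr9:64173377-64173406, plus strand: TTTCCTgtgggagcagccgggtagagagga
Rpl39, chrX:37085203-37085232, minus strand: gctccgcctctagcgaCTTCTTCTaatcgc

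In Rps6, Rpl15, Rpl28 and Rps24 the run begins within 4 bases before the annotated start. The window of Rps2 or Rplp0 holds no run of that length, that of Rpl4 shows only the end of a run lying before the start, and that of Rpl39 a run after it. A run of at least 8 that touched the 10 bases on either side of the start was found in 27 of the 62 members (43.5%), against 13.9% of 27025 genes in the same table. Annotated starts can lie a few bases from those used in these cells, so a missing run says only that these letters are not in this window. Over the 300 bases from 250 before to 50 after the start, both strands searched, CCGGAAG (a core bound by ETS factors) was found in 38.7% of members and 9.12% of all genes, and CTTTCC, which can lie within a pyrimidine run, in 48.4% and 26.3%. AAGATGGC, the YY1 core, was in 6.45% and 2.88%, and TATAAA in 9.68% and 14.2%. Members with the run had a median log2 fold change (KO over control) of 0.12 (20 of 27 tested positive), and those without it 0.09 (25 of 32 positive).

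Library totals lay between 59435258 and 64653956 counts, so 3 counts, the limit that a count of 0 allows, are worth 0.0439 to 0.0538 CPM (counts scaled to a common library total), for counting error only. Piezo1 averaged 16.1 ± 8.65 CPM (SD, n = 3) in the controls and 7.23 ± 2.67 CPM (SD, n = 3) with the KO label, with overlapping groups, and Piezo2 had 0 counts in all 6. All 13 genes checked as marking or excluding LT-HSCs were detected, with sums of 1057 to 1464 CPM in the controls and 959 to 1192 CPM in KO libraries. These sums hide members that differed in opposite directions: Ly6a (the Sca-1 antigen) averaged 326 ± 44.6 CPM (SD, n = 3) in the controls and 123 ± 72.8 CPM in KO libraries, Procr 48.6 ± 23.2 and 13.8 ± 11.4 CPM, and Kit 185 ± 68.3 and 319 ± 25.7 CPM. The groups did not overlap for Ly6a and Kit, none of the 3 passed the adjusted threshold in edgeR, and DESeq2 called Ly6a and Procr lower. Markers of some other blood cells moved with the groups or with 1 library. The 9 erythroid markers summed to 2562 to 7553 CPM in the controls and 8215 to 26260 CPM in KO libraries. The 4 globin genes made up the rise of that sum, while Car1 (2589 ± 1237 and 1114 ± 451 CPM, SD, n = 3) and Klf1 (133 ± 39.5 and 83.9 ± 22.1 CPM) had lower means in KO libraries. The 6 megakaryocyte markers summed to 771 to 1039 and 1668 to 2482 CPM, mostly from Pf4, while Gp9 and Ppbp had overlapping groups. The 5 T and NK cell markers summed to 127 to 207 and 245 to 257 CPM, nearly all from Nkg7. Sums of the B cell, macrophage and dendritic cell, and stroma markers overlapped between the groups. The 10 granulocyte markers summed to 172 and 225 CPM in control 1 and 2, 12235 CPM in control 3 and 120 to 1174 CPM in KO libraries, and none of these markers was at 0 in all libraries. Their part in the results below was not tested, and in such bulk libraries fewer cells of a type and less RNA per cell cannot be told apart.

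The members together took 14.04%, 12.8% and 16.2% of the counts of control 1, 2 and 3, and 14.99%, 16.4% and 15.1% of those of KO 1, 2 and 3. Control 1 and 2 were the 2 lowest libraries, while control 3 lay inside the KO range, so the groups overlapped. The means were 14.3% ± 1.73 (SD, n = 3) in control and 15.5% ± 0.767 (SD, n = 3) in KO libraries, a difference of 1.18 percentage points (exact permutation test, two-sided, p = 0.4, with 0.1 the smallest p that 3 against 3 libraries allow). The difference was 2.111 points without control 3, the library with the granulocyte markers, and 0.397 points without control 2. The share of the stem cells' mRNA that encodes ribosomal proteins thus differed by less than the spread between libraries.

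Large subunit members took 7.998%, 7.26% and 9.01% of control and 8.37%, 9.10% and 8.36% of KO counts. Small subunit members took 6.04%, 5.49% and 7.18% of control and 6.62%, 7.29% and 6.79% of KO counts. The subunits moved together from library to library. The ratio of large to small subunit counts, which no library scaling affects, was 1.32, 1.32 and 1.26 in control and 1.26, 1.25 and 1.23 in KO libraries. Control 1 and 2 had the highest ratios, and control 3 lay just below KO 1. The mean log2 ratio was lower by 0.06 in KO libraries (exact permutation test, two-sided, p = 0.2). Without Rplp0, Rpl4 and Rps2, chosen after their values were seen, the difference was -0.04 on the log2 scale, and as a ratio of mean log2 levels, which gives each gene the same weight, it was -0.01.

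**Figure D1:**
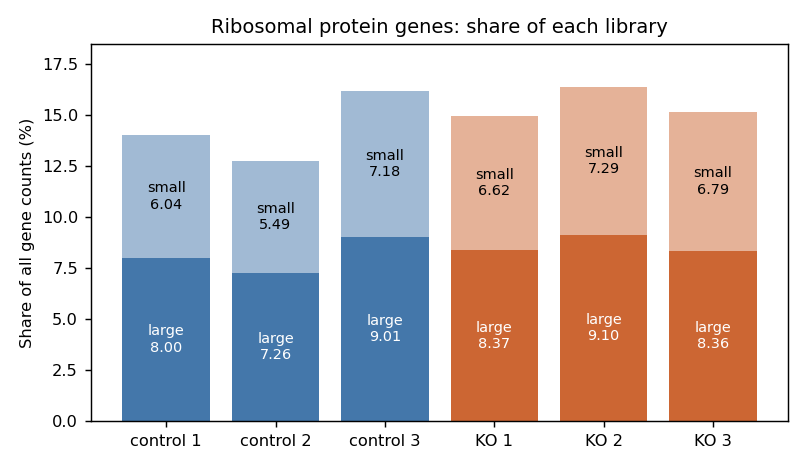
Share of all gene counts taken by ribosomal protein genes (vertical axis, %) in each of the 6 libraries, with large subunit members in the dark and small subunit members in the light part of the bar. Control 1 and 2 are the lowest libraries, and control 3, at 16.2% in all, stands among the KO libraries.

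Gene by gene, 81 members had enough counts to be tested, and none passed the threshold of an adjusted p under 0.05 (edgeR quasi-likelihood test, Benjamini-Hochberg over 16022 genes; smallest adjusted p of a member 0.305). Among all genes tested 0% passed. At a p under 0.05 before adjustment, 1 member was higher in KO libraries, against 5.44% of all genes, and 3 were lower, against 5.59%. The groups did not overlap for 2 members that were higher and 3 that were lower in KO libraries, against 10.7% and 8.76% of all genes. DESeq2 called 0 members higher and 2 lower (2.09% and 3.59% of all genes with an adjusted p there), and limma-voom called 0. The members' median log2 fold change was 0.10, with 61 above and 20 below 0, and their range was -0.57 to 0.54. Over all genes the median was 0.03, with 8356 of 16022 above 0. Members share swings between libraries, so their signs are not independent of each other. Large subunit members had a median of 0.08 (34 of 49 above 0) and small subunit members of 0.10 (27 of 32 above 0).

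These counts depended on single libraries. Without control 1, KO 2 or KO 3, 0 members were higher and 1 lower at a p under 0.05 before adjustment, where 4.72%, 4.11% and 3.33% of all genes were higher and 3.35%, 3.9% and 3.46% lower. Without KO 1, 0 members were higher and 2 lower, against 4.45% and 5.07% of all genes. Without control 3, 30 members were higher and 4 lower, against 7.86% and 7.62% of all genes, and the median was 0.27, with no member past the adjusted threshold. Without control 2, 0 were higher and 4 lower, against 7.14% and 5.69% of all genes, and the median was -0.06. Another setting removed, library by library, the trends of log2 level on transcript length and GC. There 35 were higher and 1 lower, against 5.41% and 5.12% of all genes. The median was 0.32, beside 0.04 for all genes.

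**Figure D2:**
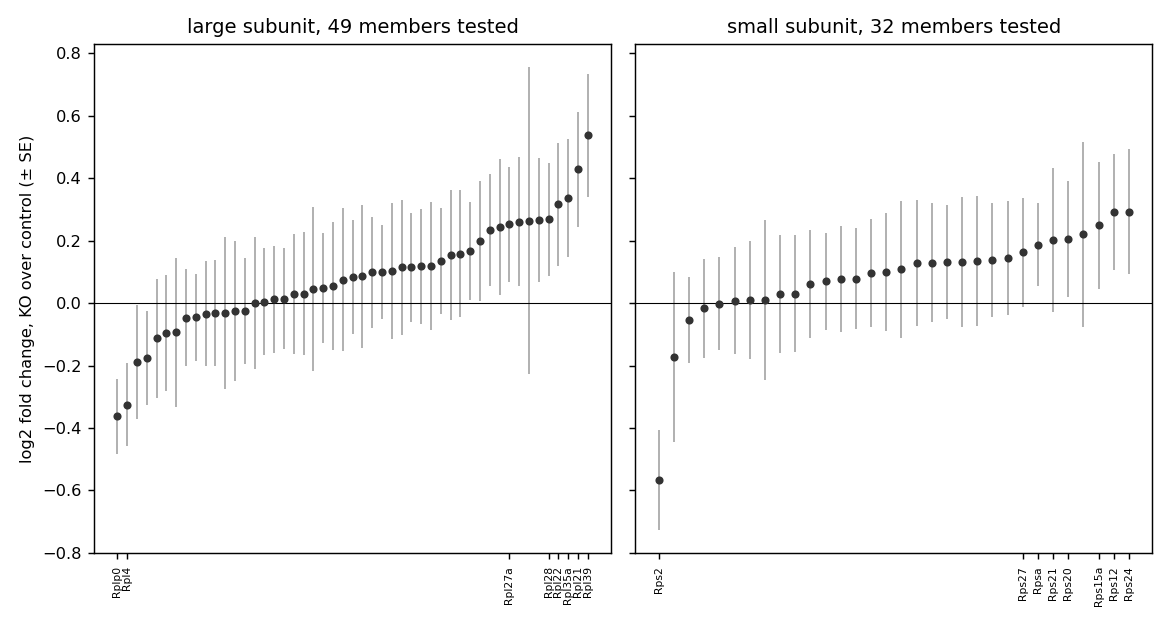
Log2 fold change of KO over control (vertical axis) for the 49 large and 32 small subunit members tested, in order of size, with the 8 of each subunit with the smallest p named on the horizontal axis; bars are ± 1 SE. Most points lie within 1 or 2 SE of 0, and the members whose groups do not overlap are Rps2 (-0.57), Rplp0 (-0.36) and Rpl4 (-0.32) below and Rpl39 (0.54) and Rpl21 (0.43) above.

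Rps2, a small subunit protein near the mRNA entry channel (chr17:24718116-24721929 in GENCODE M21, GRCm38), had 2399, 2049 and 2296 CPM in the controls and 1705, 1593 and 1255 CPM in KO libraries. Every KO library lay below every control library. The log2 fold change was -0.57 ± 0.16 (SE; edgeR unadjusted p = 0.00909, adjusted p = 0.305), and DESeq2 gave an adjusted p of 0.00984. Its adjusted p over the alternatives ran from 0.00984 to 0.706, and the fold change kept its direction in each, from -0.68 to -0.41. Rps2 has many processed pseudogenes, and 79.0% of its 50-base stretches are also found in other genes. With the counts of its named pseudogene rows added, the value was -0.47.

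Rplp0 (chr5:115559467-115563727) encodes the base of the ribosomal stalk, the lateral arm of the large subunit that recruits elongation factors. It had the highest mean of all members, with 5763, 5094 and 5177 CPM in the controls and 4277, 4280 and 3909 CPM in KO libraries. Here too the groups did not overlap. The log2 fold change was -0.36 ± 0.12 (SE; edgeR unadjusted p = 0.0176, adjusted p = 0.360; DESeq2 adjusted p = 0.0378), and its adjusted p over the alternatives ran from 0.0378 to 0.728. Its partners in the stalk, the acidic dimer proteins, did not share this: log2 fold changes were 0.00 ± 0.21 (SE) for Rplp1 and 0.24 ± 0.22 (SE) for Rplp2, both with overlapping groups. The differences between the 3 stalk genes were not tested.

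Rpl4 (chr9:64173375-64178666), whose long loop lines the exit tunnel of the nascent chain, had 4181, 3394 and 3489 CPM in the controls and 3037, 3004 and 2792 CPM in KO libraries. The groups did not overlap, although control 1 lay well above the other two controls. The log2 fold change was -0.32 ± 0.13 (SE; edgeR unadjusted p = 0.0446, adjusted p = 0.441). With the length and GC trends removed the value was -0.07, and that of Rplp0 was -0.13. Unlike Rps2, only 16.5% of its 50-base stretches recur in other genes.

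Rpl39 (chrX:37082520-37085402, minus strand) encodes a very small basic protein that also lines the exit tunnel. It had 663, 588 and 929 CPM in the controls and 1066, 1108 and 989 CPM in KO libraries. All KO libraries lay above all controls, with control 3 the closest. The log2 fold change was 0.54 ± 0.20 (SE; edgeR unadjusted p = 0.0286, adjusted p = 0.396). Rpl21 (chr5:146832890-146837032), a large subunit protein, had 457, 356 and 516 CPM in the controls and 560, 669 and 559 CPM in KO libraries, again with no overlap. Its log2 fold change was 0.43 ± 0.18 (SE; edgeR unadjusted p = 0.0525), and rows named as Rpl21 pseudogenes held 31.6% of the counts of gene and pseudogenes together.

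**Figure D3:**
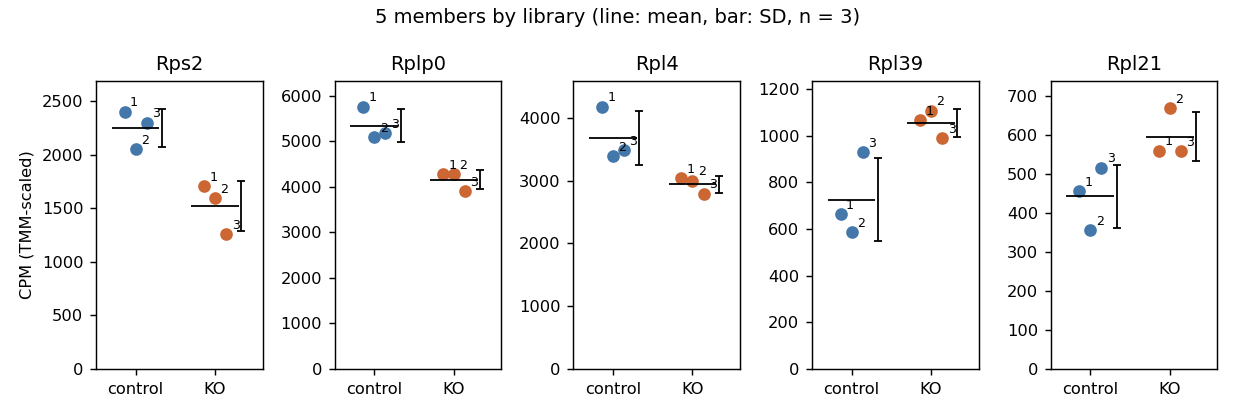
CPM (vertical axes, each from 0) of Rps2, Rplp0, Rpl4, Rpl39 and Rpl21 in control and KO libraries, numbered by replicate, with the mean as a line and the SD as a bar (n = 3). In each panel the groups do not overlap: KO libraries lie lower for Rps2, Rplp0 and Rpl4 and higher for Rpl39 and Rpl21.

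Within each subunit, the next members by p, up to the 8 with the smallest, had higher means in KO libraries with overlapping groups. Of the large subunit these were Rpl35a (log2 fold change 0.34 ± 0.19, SE), Rpl22 (0.32 ± 0.20), Rpl28 (0.27 ± 0.18) and Rpl27a (0.25 ± 0.18). Of the small subunit they were Rps12 (0.29 ± 0.18, SE), Rps24 (0.29 ± 0.20), Rpsa, which doubles as a laminin-binding protein (0.19 ± 0.13), Rps15a (0.25 ± 0.20), Rps20 (0.20 ± 0.19), Rps27 (0.16 ± 0.17) and Rps21 (0.20 ± 0.23). Their unadjusted p-values ran from 0.119 (Rpl35a) to 0.406 (Rps21) in edgeR. Some large subunit members past the first 8 by p, among them Rpl6 and Rpl3, had lower means in KO libraries. For 16 members, the 8 of each subunit with the smallest p, the direction held in 288 of 288 values over the alternative settings. These 16 were picked by p from the same libraries, so this agreement was largely set by the choice.

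Rps6, the substrate of the S6 kinases downstream of mTOR, had 3896, 3196 and 4201 CPM in the controls and 3569, 4131 and 3583 CPM in KO libraries, with interleaved groups. Its log2 fold change was 0.00 with a 95% interval of -0.35 to 0.35. Rpl5 and Rpl11, which form the 5S particle with 5S rRNA and, when free of ribosomes, bind MDM2, had log2 fold changes of 0.05 ± 0.18 and 0.08 ± 0.18 (SE). Rps19, the gene most often mutated in Diamond-Blackfan anemia, had 3118, 2485 and 3897 CPM in the controls and 3187, 3806 and 3189 CPM in KO libraries. Its log2 fold change was 0.10, with a 95% interval of -0.34 to 0.54, and that of Rps14, the gene of the 5q- syndrome, was 0.13 (-0.34 to 0.60). The lower ends of these 3 intervals lay near -0.35 and the upper ends between 0.35 and 0.60.

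Of 18 genes mutated in Diamond-Blackfan anemia, 0 were higher and 0 lower at a p under 0.05 before adjustment, against 5.44% and 5.59% of all genes. Their median log2 fold change was 0.10, beside 0.03 for all genes. The values farthest from 0 were -0.11 (Rpl18) and 0.34 (Rpl35a), and 15 of the 18 lay above 0, beside 61 of 81 members. Their median was -0.07 without control 2 and 0.27 without control 3. Without control 3, 7 of the 18 were higher, beside 30 of all members and 7.86% of all genes. With the length and GC trends removed 8 were, beside 35 members and 5.41% of all genes. Rps26 (0.03 ± 0.19, SE) and Rpl31 (0.16 ± 0.20) show the usual size of value and error.

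Most members varied little between libraries once the swing they shared was removed. On a scale set by the members' own total, Rps4x varied least (SD of its log2 level over the 6 libraries 0.0252), followed by Rpl5 (0.0293). Rpl7a (0.427), Rpl3 (0.404) and Rps2 (0.395) varied most, beside a median of 0.0955 over the members tested. For Rpl7a, with 295 CPM in KO 2 and 402 to 550 CPM in the other libraries, 81.2% of the 50-base stretches recur in other genes and rows named as its pseudogenes held 52.1% of the joint counts. Rpl3, a protein close to the peptidyl transferase centre, had 2228, 2413 and 1580 CPM in the controls and 1891, 1724 and 1843 CPM in KO libraries. Control 3 was the lowest library for it, whereas control 3 was the highest control for the members as a whole.

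On that scale 10 members were higher and 4 lower in KO libraries at a p under 0.05 before adjustment, against 3.63% and 6.10% of all genes, and the smallest adjusted p was 0.327 (edgeR). The groups did not overlap for 19 members that were higher and 9 that were lower, against 8.41% and 8.89% of all genes. This scale removes from the members the swings they share and passes those swings to every other gene, so the shares of all genes are not a like background. The 4 lower members were Rps2 (log2 fold change -0.64), Rplp0 (-0.45), Rpl4 (-0.41) and Rpl6 (-0.23). The 10 higher ones were Rpl39 (0.50), Rpl21 (0.37), Rpl35a (0.28), Rpl22 (0.27), Rps24 (0.25), Rpl28 (0.22), Rpl23 (0.22), Rps15a (0.21), Rpl27a (0.21) and Rpl37a (0.18).

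Rpl4, Rpl3 and Rplp0 encode the longest ribosomal proteins among the members tested, and Rps2 and Rpl6 are also long. The first 3 had lower means in KO libraries, with overlapping groups for Rpl3. For 76 members, leaving out 3 that lacked counts and 5 that are paralogs or processed copies, the log2 fold change went with coding length (GENCODE M21) at a Pearson r of -0.62 and a Spearman rho of -0.51. For mean log2 CPM the same 2 values were -0.38 and -0.41. For the percentage of 50-base stretches shared with other genes they were -0.27 and -0.29, and for GC percent -0.22 and -0.22. These are descriptions across genes that share libraries and depth. Coding length was not among the planned comparisons, and its relation was read from the same fold changes. Which of these properties the fold change follows was not tested. The 25 members in the class of shortest coding sequences (up to 400 bases) had a median log2 fold change of 0.16 (23 above 0), the 30 with up to 600 bases one of 0.10 (26 above 0), and the 21 with more than 600 bases one of 0.00 (10 above 0).

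The shortest class took 23.5%, 23.7% and 25.4% of the member counts in control and 26.3%, 26.3% and 25.4% in KO libraries. The longest class took 37.7%, 38.6% and 33.8% in control and 34.1%, 33.1% and 34.2% in KO libraries. Control 3 sat with the KO libraries in both classes, and the differences had p = 0.2 and p = 0.3 (exact permutation tests, two-sided). The length classes were not planned either, so these p-values only describe the libraries at hand. Over the 76 members, after scaling to their own total, the root mean square log2 distance of control 3 was 0.201 and 0.242 to the other controls and 0.147 to 0.190 to the KO libraries. With the length of the whole annotated transcript the members' values showed no such relation (Pearson r 0.06, Spearman rho -0.05). Over all genes, medians by quartile of transcript length, from short to long, were -0.06, -0.21, 0.04 and 0.33. Whether RNA quality or the cells captured played a part was not tested.

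**Figure D4:**
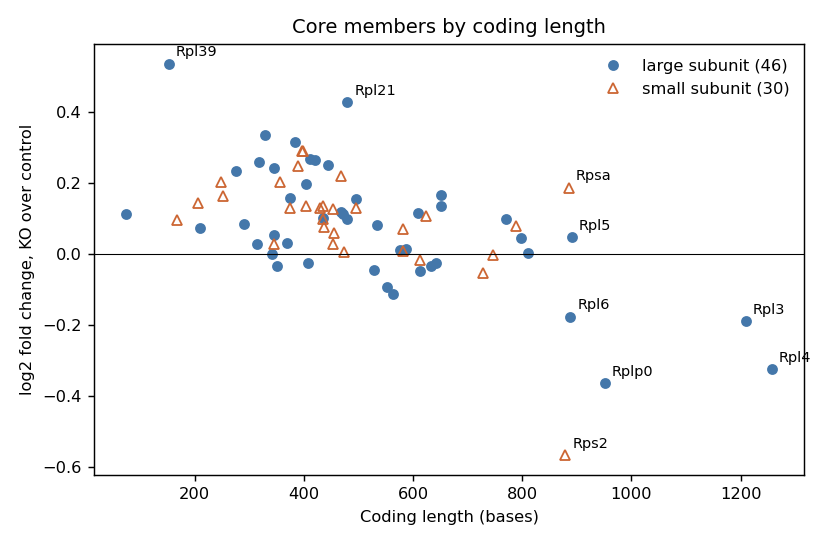
Log2 fold change of KO over control (vertical axis) against coding length in bases (horizontal axis) for 46 large (filled circles) and 30 small subunit members (open triangles). Among the longest, Rpl3, Rpl4, Rpl6, Rplp0 and Rps2 lie below 0, while Rpl5 and Rpsa, of like length, lie above it.

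Several ribosomal proteins have a second gene, often with tissue-restricted expression. Rpl10l and Rpl39l, the copies used in male germ cells, had 0 counts in all 6 libraries, and Rpl3l, the copy of heart and skeletal muscle, had 55 counts in KO 1 and 0 in the other 5. Processed copies were low: Rpl32l averaged 7.68 CPM and Rps4l 42.9 CPM, beside 290 CPM for Rpl6l. GENCODE lists these 3 as pseudogenes, and whether reads of the parent genes are among their counts was not tested.

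Other pairs were both expressed. Rpl22l1, which can replace Rpl22 in the ribosome, made up 52.3%, 51.8% and 53.7% of the pair in control and 53.3%, 53.9% and 51.5% in KO libraries. These shares are of counts, not corrected for length: per kilobase of transcript Rpl22l1 stood at 1093 CPM and Rpl22, with its longer annotated transcript, at 263 CPM in the controls. The share varied little between libraries, and the difference of the log2 ratio was 0.02. Rpl36al made up 38.9%, 35.2% and 39.5% of its pair with Rpl36a in control and 35.5%, 31.4% and 34.2% in KO libraries. Control 2 lay inside the KO range, and the log2 ratio was lower by 0.26 in KO libraries. Rps27l, a p53 target, made up 25.1%, 22.6% and 29.0% of its pair with Rps27 in control and 24.5%, 20.8% and 20.1% in KO libraries, with a difference of -0.30 on the log2 scale that was -0.17 without control 3. The groups overlapped through control 2 and KO 1.

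Rpl7l1, a ribosome assembly factor related to Rpl7, made up 10.8%, 12.8% and 5.71% of its pair in control and 6.34%, 5.33% and 5.14% in KO libraries. Control 3 again sat with the KO libraries, and the log2 ratio was lower by 0.80. Its own log2 fold change was -0.80 ± 0.24 (SE; edgeR adjusted p = 0.317), and DESeq2 called it lower. It had 301, 281 and 175 CPM in the controls and 165.5, 142 and 127 CPM in KO libraries. Rps4l made up 1.05%, 1.51% and 1.28% of its pair with Rps4x in control and 1.10%, 1.43% and 1.09% in KO libraries.

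Over the 6 pairs tested the exact permutation p lay between 0.2 and 0.9, and the smallest Benjamini-Hochberg adjusted p was 0.4. Coding sequences within a pair were 54.0% (Rpl7l1) to 87.7% (Rpl36al) identical, with no 50-base stretch in common where both have a coding sequence.

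**Figure D5:**
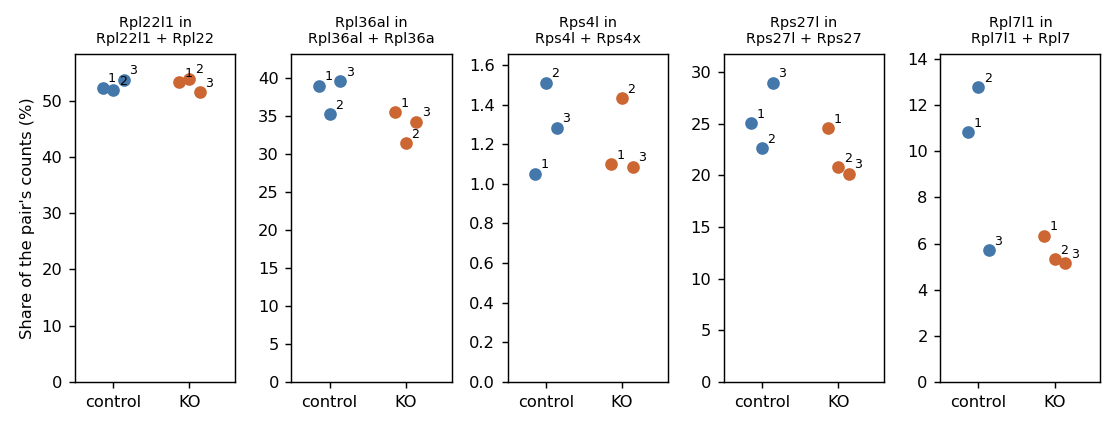
Share of a paralog pair's counts, for Rpl22, Rpl36a, Rps4x, Rps27 and Rpl7, held by the first-named gene (vertical axes, %, each from 0) in control and KO libraries, numbered by replicate. Rpl22l1 stays between 51.5% and 53.9% in all libraries, and Rpl7l1 is lower in control 3 and the KO libraries than in control 1 and 2.

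A further 6 genes of the ribosome or its relatives fall outside the symbol rule. Rps3a1 (log2 fold change 0.14 ± 0.16, SE), Fau (0.11 ± 0.18), Rack1 (-0.09 ± 0.17) and Rpl22l1 (0.33 ± 0.22) had overlapping groups, and Rpl7l1 is described above. At a p under 0.05 before adjustment, 0 of the 6 were higher and 1 lower, against 5.44% and 5.59% of all genes.

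Genes that act with the ribosome were described from lists by role. Of 19 elongation factors and other genes with TOP mRNAs, 2 were higher and 2 lower at a p under 0.05 before adjustment, against 5.44% and 5.59% of all genes. Their median log2 fold change was 0.03, equal to that of all genes, and ran from -0.12 without control 2 to 0.16 without control 3. Pabpc1, the poly(A)-binding protein (0.55 ± 0.20, SE), and Tpt1 (0.53 ± 0.21) were the higher ones. Eef1g, a subunit of elongation factor 1 (-0.38 ± 0.13), and Impdh2, an enzyme of guanine nucleotide synthesis (-0.44 ± 0.18), were the lower ones. These counts were between 0 and 5 higher and between 0 and 3 lower under the alternatives. Without control 1, 0 were higher and 0 lower, against 4.72% and 3.35% of all genes.

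Of 28 initiation factor genes, 0 were higher and 10 lower at a p under 0.05 before adjustment, against the 5.44% and 5.59% of all genes, with a median log2 fold change of -0.27. None passed the adjusted threshold in edgeR, and DESeq2 called 6 lower, against 3.59% of all genes. Eif2s1, the alpha subunit of eIF2 whose phosphorylation slows initiation, had 393, 290 and 406 CPM in the controls and 246, 222 and 170 CPM in KO libraries. The groups did not overlap, and the log2 fold change was -0.77 ± 0.21 (SE). Eif2b1, of the exchange factor that recharges eIF2 (-1.05 ± 0.30), Eif3l, of the eIF3 complex (-0.68 ± 0.20), and Eif4e, the cap-binding protein (-0.59 ± 0.19), also lay lower. The lower count was 5 without control 1, 3 without KO 2 and 4 without KO 3, against 3.35%, 3.9% and 3.46% of all genes.

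Of 23 genes of subunit assembly and ribosomal protein escort, 0 were higher and 7 lower at a p under 0.05 before adjustment, against 5.44% and 5.59% of all genes, with a median of -0.43. DESeq2 called 3 lower, against 3.59% of all genes. Pno1, a late small subunit assembly factor, had 205, 125 and 135 CPM in the controls and 71.8, 84.2 and 76.3 CPM in KO libraries, with a log2 fold change of -1.002 ± 0.22 (SE; edgeR adjusted p = 0.255). Nmd3, which exports the large subunit (-0.87 ± 0.28), Mrto4, which holds the stalk site before Rplp0 joins (-0.72 ± 0.21), and Ltv1, a small subunit assembly factor (-0.70 ± 0.24), were lower as well. The lower count was 2 without control 1, 3 without KO 2 and 3 with the length and GC trends removed. The shares of all genes there were 3.35%, 3.9% and 5.12%. Whether these lists differ from the ribosomal protein genes was not tested.

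Of 17 genes that control these mRNAs or signal growth, 1 was higher and 1 lower at a p under 0.05 before adjustment, against 5.44% and 5.59% of all genes. The median was 0.11, and it was -0.02 without control 2 and -0.10 with the length and GC trends removed. Pdcd4, an inhibitor of the helicase eIF4A, had 279, 289 and 195 CPM in the controls and 366, 447 and 564 CPM in KO libraries (0.85 ± 0.23, SE), and Eif4ebp1, which blocks eIF4E, had a log2 fold change of -0.60 ± 0.24. Larp1, the TOP mRNA binder, had 42.2, 70.8 and 83.7 CPM in the controls and 104, 79.0 and 114 CPM in KO libraries (0.60 ± 0.29). Mtor was at 0.03 ± 0.29. Of 10 genes of ribosome surveillance and the p53 response, Mdm4 was higher (0.46 ± 0.18) and Trp53 lower (-0.70 ± 0.22) at a p under 0.05 before adjustment. This stands against 5.44% and 5.59% of all genes, and the list's median was -0.09 (0.03 without control 2). Mdm2, the ligase that free Rpl5 and Rpl11 bind, was at -0.07 ± 0.31. Without control 1, or without KO 2, Eif4ebp1, Mdm4 and Trp53 no longer reached that p. Leaving out control 3 gave 4 higher genes of the growth list, against 7.86% of all genes.

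Levels between genes were compared per kilobase of the annotated transcript. Rpl41 (7181 CPM per kilobase in control), Rplp1 (6093) and Rpl32 (5638) were highest. Rpl21 (239), Rpl22 (263) and Rps15a (305) were lowest of the 76, and since their annotated transcripts are long, such low values need not mean fewer molecules. In total CPM, Rplp0 (4750 over all libraries) and Rpl13 (4146) led, and Rpl17 (352) was lowest of the 76, with 68.1% of the joint counts in rows named as its pseudogenes. Shared sequence varies widely among members: 98.6% of the 50-base stretches of Rps27 and 92.1% of those of Rpl10 recur in other genes, but 2.96% of those of Rps3, whose log2 fold change was -0.05 ± 0.14 (SE). Rows of 225 named pseudogenes of 58 members held 0.852% to 1.12% of all counts, and adding them to their genes called no member at the adjusted threshold.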

How the data were processed

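RNA extracted with TRIZOL was made into TruSeq libraries (strand not stated), per the labels' protocols. The authors deposited raw counts per gene, 47561 rows in each library, of which 2046 carry assembler-style identifiers. The build mm10, featureCounts 1.6.4, HISAT2 2.1, cutadapt 1.16.5, DESeq2 2.11.40.6 and bcl2fastq 2.19 are named, without roles, in the submitters' processing notes. Rules for reads with several matches were not given in the sources used here. Such reads can move between a gene and its pseudogenes.

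Here the counts were fitted in R 4.3.3 with edgeR 4.0.16 (filterByExpr, TMM scaling, quasi-likelihood test between the groups, Benjamini-Hochberg over all 16022 genes, threshold 0.05; common biological coefficient of variation 0.755), after tests on simulated data. The SE is the fold change divided by the square root of F. DESeq2 1.42.0, limma-voom (limma 3.58.1), other scalings and filters, a replicate block and leaving out each library were alternatives. Libraries differed by more than sampling noise. Per-library values used exact permutation tests. The members and lists were chosen with earlier results of these data known. Named members were the 8 per subunit with the smallest p, those of extreme level or spread, the paralogs, stalk, 5S particle, Rps6, Rps14 and Rps19, and up to 4 per list by p; other names were added after values were seen. Gene positions are from GENCODE M21 and RefSeq (GRCm38), not from the deposited tables. Values of some genes and of 1 paralog pair are not reported here.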

Additional observations from a re-analysis of the deposited data

How the results depend on the processing

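In edgeR 0 genes passed the threshold, with 1767 at an unadjusted p under 0.05; 1 passed with a minimum of 5 CPM in 3 libraries, 0 to 1 on leaving out a library (1 without control 1) and 521 in DESeq2, which called 2 members. The members' median of 0.10 was 0.32 with length and GC trends removed and -0.06 to 0.27 on leaving out a library. With the replicate number as a block 0 genes passed and the median was 0.11. Deviations from the group mean, compared between same-numbered libraries over all genes, correlated at 0.02 to 0.04. Over the members they correlated at 0.29, -0.27 and -0.28 for replicates 1, 2 and 3. These values cannot settle whether same-numbered libraries shared a batch. The log2 ratio differences over left-out libraries ran from -0.011 to 0.057 for Rpl22l1/Rpl22 and -0.22 to 0.042 for Rps4l/Rps4x, so leaving out 1 library could turn their direction. With 3 libraries a group the exact tests cannot go below 0.1, and the members' median SE of 0.19 limits single genes more than depth does.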
